A study of Mus musculus with 24 samples.

Results

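The genes of the unfolded protein response and of the ATF4 stress pathway examined here were Atf4, Atf3, Ddit3, Xbp1, Hspa5, Herpud1, Asns, Trib3, Chac1 and Gdf15, chosen by symbol in the deposited table of gene levels. All 10 were found once each among its 49452 gene rows. Levels are in FPKM, fragments scaled to transcript length and to the number mapped, so that genes of different length can be set side by side.

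The 24 poly-A RNA libraries came from primary stromal vascular fraction cells, the adipocyte precursors and accompanying cells of fat, of male C57BL/6 mice 6 to 8 weeks of age, taken from interscapular brown adipose tissue (BAT) or epididymal visceral white adipose tissue (vWAT). Cells received by nucleofection either siH19, a short interfering RNA against the long noncoding RNA H19, or siCtrl, a non-targeting control. The silenced libraries are titled siH19_3 and the control libraries siKO. The study used more than 1 siRNA against H19, and siH19 here means the one in these titles. RNA was taken at day0 (d0), before adipogenic induction, or at day3 (d3) of differentiation, which gave 8 groups of 3 libraries: siCtrl and siH19 at d0 and d3, in BAT and in vWAT cells. Insulin, dexamethasone and rosiglitazone were in the induction medium of both depots, indomethacin and triiodothyronine in that of BAT cells, and the later medium held rosiglitazone for vWAT and triiodothyronine for BAT cells. The labels name IBMX for both depots and the study's methods for white fat cells. BAT tissue was also digested with Dispase and pooled where cells were few, and its libraries carry another serial name (MB-3) than those of vWAT (MB-4), so depot, digestion, medium and library series cannot be told apart. Between days, d3 cells differed from d0 cells also in time since nucleofection and in contact with the media. Differentiation and these cannot be told apart. No source used here says that the replicates came from separate cultures or animals, so p-values measure the spread between these samples, which may be technical.

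Unfolded protein in the endoplasmic reticulum (ER) is sensed by IRE1, PERK and ATF6. IRE1 splices the mRNA of Xbp1 into the form that encodes the active factor, ATF6 and XBP1 raise ER chaperones such as BiP (Hspa5), and PERK, like other eIF2alpha kinases, slows protein synthesis while favouring translation of ATF4. ATF4 in turn raises genes of amino acid supply and the factor CHOP (Ddit3), which is linked to cell death under lasting stress. Gene-level FPKM measures neither splicing of Xbp1 nor translation of Atf4. In adipocytes the ER makes both lipid droplets and secreted proteins.

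The targeted RNA was lower in every siH19 library than in every siCtrl library of its depot and day. H19 averaged 130 FPKM in siCtrl and 4.36 FPKM in siH19 BAT cells at d0, and 89.8 against 13.7 FPKM at d3. In vWAT cells it averaged 11.7 against 1.21 FPKM at d0 and 8.59 against 0.528 FPKM at d3. Column sums ranged from 710800 to 772300 FPKM at d0 and from 800900 to 841500 FPKM at d3, and replicate pairs correlated across genes with Pearson r of 0.988 to 0.991 on log2(FPKM + 1). The number of reads is unknown, but the steps between low values put the relative depth at 0.826 to 0.983 in BAT and 1.02 to 1.17 in vWAT libraries. The summed level of 6 adipocyte markers was 1581 to 4062 FPKM over all d0 libraries and 17700 to 35600 FPKM over all d3 libraries. The labelled differentiation was visible in these markers. The 6 precursor markers summed to 1219 to 1345 FPKM at d0 and 384 to 430 FPKM at d3 in siCtrl BAT cells. They did not fall in siCtrl vWAT cells, at 626 to 685 FPKM at d0 and 706 to 786 FPKM at d3. In siH19 vWAT cells they summed to 663 to 782 FPKM at d0 and 761 to 838 FPKM at d3. The 6 brown adipocyte markers summed to 503 to 556 FPKM in siCtrl BAT cells at d3. In siCtrl vWAT cells at d3 they summed to 120.4 to 135.5 FPKM, and 3 of them averaged under 1 FPKM. Elovl3 alone averaged 470 FPKM in these BAT and 124 FPKM in these vWAT cells. The 5 macrophage markers summed to 78.8 to 160 FPKM in BAT and 269 to 583 FPKM in vWAT libraries, and the 4 endothelial markers to at most 10.2 FPKM. These are bulk cultures, in which fewer cells of a type and less RNA per cell cannot be told apart.

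The promoters of 4 of the 10 genes held a textbook stress element in the 250 bases before their RefSeq start (assembly GRCm38.p6). Both strands were searched. The stretches around the matches are shown because they hold elements of the ER stress kind and of the ATF4 kind. These kinds do not divide the genes, as Herpud1 held both. Capitals mark the element, and each stretch is written 5′ to 3′ on the strand of its gene. The ER stress response element, spelled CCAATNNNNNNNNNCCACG, was in 0.113% of 32851 promoters of the same length, and its variant ERSE-II, spelled ATTGGNCCACG, in 0.0304%. The C/EBP-ATF response element bound by ATF4 and CHOP, spelled TTGCATCA, was in 0.791%, and the core of the unfolded protein response element, spelled TGACGTG, in 1.65%. No 2 of the matches below overlapped. The Hspa5 ERSE stretch lies in an exon of a longer annotated transcript (GENCODE M21) and is cut short, the Atf3 stretch lies in an intron of a longer transcript, and the others lie upstream of the annotated gene.
Hspa5, ERSE, chr2:34772020-34772048, plus strand: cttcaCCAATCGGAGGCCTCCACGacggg
Hspa5, UPRE core, chr2:34771908-34771964, plus strand: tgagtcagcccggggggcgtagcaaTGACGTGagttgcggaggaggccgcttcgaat
Herpud1, ERSE-II, chr8:94386352-94386412, plus strand: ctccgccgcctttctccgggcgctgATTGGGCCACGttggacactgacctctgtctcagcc
Herpud1, C/EBP-ATF, chr8:94386292-94386349, plus strand: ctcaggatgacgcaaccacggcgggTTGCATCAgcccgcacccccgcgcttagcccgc
Chac1, C/EBP-ATF, chr2:119351024-119351081, plus strand: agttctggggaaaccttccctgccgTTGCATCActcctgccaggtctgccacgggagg
Atf3, C/EBP-ATF, chr1:191183411-191183468, minus strand: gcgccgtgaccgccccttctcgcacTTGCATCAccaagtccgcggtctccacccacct

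The windows of Atf4, Ddit3, Xbp1, Asns, Trib3 and Gdf15 held none of these letters, which says nothing of other spellings or of sequence further away.

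**Figure D1:**
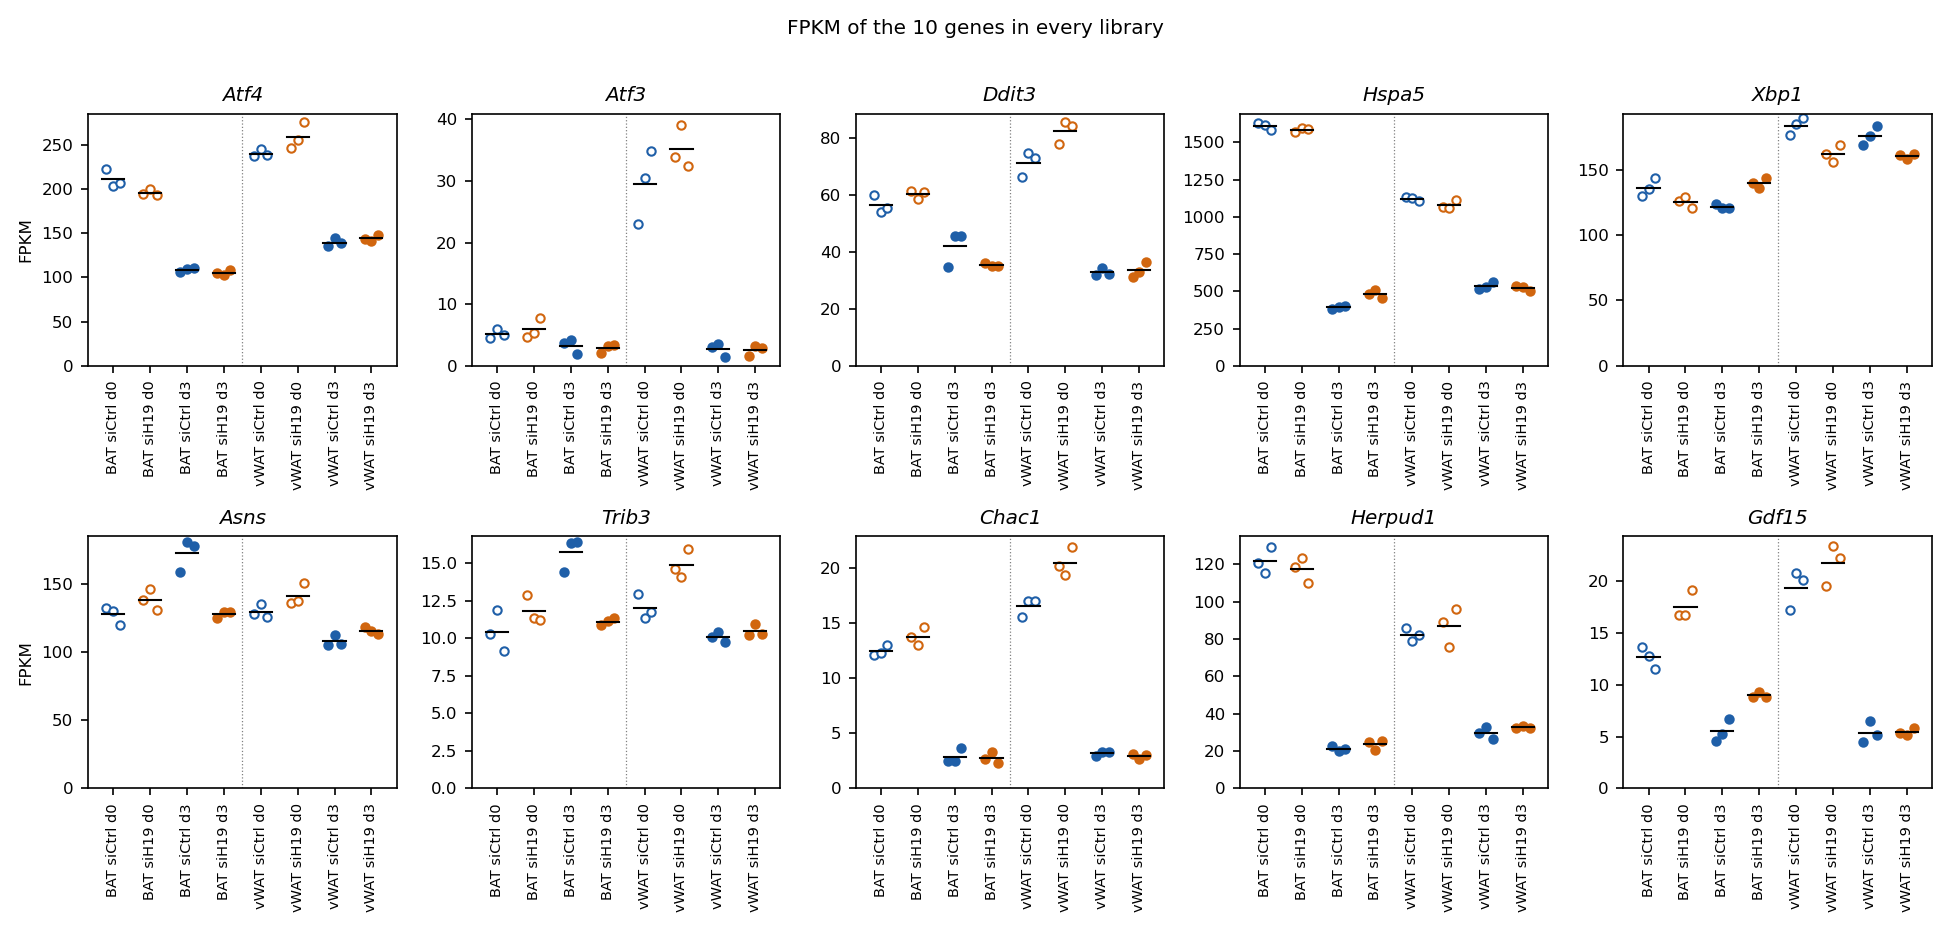
FPKM (linear axes from 0) of each gene in every library, by depot, siRNA and day. Blue points are siCtrl and orange points siH19 libraries, open points d0 and filled points d3, and black bars are means of 3 libraries. Hspa5, Herpud1 and Chac1 lie far lower at d3 than at d0, and Asns and Trib3 have their highest mean in siCtrl BAT cells at d3.

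From d0 to d3 most of these genes fell in both depots, and the pair Asns and Trib3 went up in siCtrl BAT cells alone among the 4 series of cells. A gene is called below at a limma adjusted p (Benjamini-Hochberg, over all genes tested) under 0.05 with a change of at least 1.3-fold. In siCtrl BAT cells 7 of the 10 genes were called lower and 2 higher, where 35.3% of 13001 genes tested were called lower and 29.9% higher. In siCtrl vWAT cells 7 were called lower and 0 higher, against 23.9% and 26.3% of 13368 genes. In siH19 BAT cells 7 were called lower and 0 higher (29.8% and 30.8% of all genes), and in siH19 vWAT cells 8 lower and 0 higher (24.5% and 28.2%). The median log2 difference of the 10 genes was -0.76 in siCtrl BAT and -1.08 in siCtrl vWAT cells, beside -0.10 and 0.01 over all genes tested.

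Among the transcription factors, Atf4 (chr15:80255184-80257540), the central factor of the pathway, had 222, 204 and 206 FPKM in siCtrl BAT cells at d0 and 106, 110 and 110 FPKM at d3. The siCtrl vWAT libraries had 237, 245 and 238 FPKM at d0 and 135, 144 and 139 FPKM at d3. The days did not overlap in either depot, and Atf4 was 1.94 times lower at d3 in BAT (log2 difference -0.95, SE 0.04, limma adjusted p = 2.2e-06) and 1.72 times lower in vWAT cells (-0.78, SE 0.04, adjusted p = 5.7e-06). Over all 8 groups its order ran from siH19 vWAT d0 at 259 FPKM down to siH19 BAT d3 at 106 FPKM, and only the siRNA pairs at d3 overlapped with their neighbour.

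Atf3 (chr1:191170296-191218039), a stress factor of the same family, stood out by its level at d0 in vWAT cells. It had 23.0, 30.4 and 34.9 FPKM in siCtrl vWAT cells at d0 and 3.14, 3.62 and 1.39 FPKM at d3. BAT cells had 4.56, 5.94 and 5.06 FPKM at d0 and 3.64, 4.16 and 1.92 FPKM at d3. The fall was 10.8-fold in vWAT (log2 difference -3.07, SE 0.27, limma adjusted p = 8.9e-05) and 1.60-fold in BAT cells (-0.58, SE 0.22, adjusted p = 0.049), and the BAT call was lost in 8 of 12 alternatives, with adjusted p up to 0.13. At d3 all 4 groups overlapped with their neighbours in the order of levels.

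Ddit3 (chr10:127290774-127296288), which encodes CHOP, had 60.0, 54.0 and 55.3 FPKM in siCtrl BAT cells at d0 and 34.9, 45.8 and 45.8 FPKM at d3. Levels in siCtrl vWAT cells were 66.3, 74.6 and 72.9 FPKM at d0 and 32.1, 34.3 and 32.1 FPKM at d3. The BAT fall was 1.34-fold (log2 difference -0.42, SE 0.11, limma adjusted p = 0.012), and without the low first siCtrl BAT library at d3 it was -0.29 with adjusted p = 0.0063 and under 1.3-fold. The call was also lost without the first siCtrl BAT library at d0 (-0.38, adjusted p = 0.041) and under median-ratio scaling of the libraries (-0.34, adjusted p = 0.034). In vWAT cells the fall was 2.17-fold (-1.09, SE 0.06, adjusted p = 9.3e-06). Ddit3 overlaps the antisense gene Mars, a tRNA synthetase, and strand-aware counting is not stated, so reads in the overlap cannot be told apart. Mars rose from 24.2 to 45.9 FPKM in siCtrl BAT and from 32.4 to 47.9 FPKM in siCtrl vWAT cells, the opposite direction to Ddit3.

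Xbp1 (chr11:5520659-5525893), target of IRE1, stayed within 1.3-fold in total level in both depots. It had 130, 135 and 143 FPKM in siCtrl BAT cells at d0 and 124, 121 and 121 FPKM at d3, a log2 difference of -0.16 (SE 0.05, limma adjusted p = 0.018) that was under 1.3-fold. In siCtrl vWAT cells the difference was -0.06 with a 95% confidence interval from -0.17 to 0.05.

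The ER proteins moved most in BAT cells. Hspa5 (chr2:34771970-34777547), the chaperone BiP and the most abundant of the 10 genes, had 1628, 1619 and 1584 FPKM in siCtrl BAT cells at d0 and 381, 396 and 402 FPKM at d3. Control (siCtrl) vWAT cells had 1135, 1129 and 1103 FPKM at d0 and 517, 532 and 562 FPKM at d3. The fall was 4.09-fold in BAT (log2 difference -2.03, SE 0.03, limma adjusted p = 3.6e-08) and 2.09-fold in vWAT cells (-1.06, SE 0.04, adjusted p = 1.7e-06). The depots changed places: BAT cells held the higher level at d0 and the lower one at d3.

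Herpud1 (chr8:94386438-94395377), a membrane component of ER-associated degradation whose promoter carries both ERSE-II and the C/EBP-ATF element above, did the same. It had 121, 116 and 130 FPKM in siCtrl BAT cells at d0 and 22.7, 20.1 and 21.3 FPKM at d3. The siCtrl vWAT libraries had 85.9, 78.7 and 82.1 FPKM at d0 and 29.8, 32.9 and 26.4 FPKM at d3. The fall was 5.72-fold in BAT (log2 difference -2.46, SE 0.06, limma adjusted p = 1.5e-07) and 2.77-fold in vWAT cells (-1.44, SE 0.08, adjusted p = 1.2e-05).

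The ATF4 targets split. Chac1 (chr2:119351229-119354381), which degrades glutathione, had 12.1, 12.2 and 13.02 FPKM in siCtrl BAT cells at d0 and 2.46, 2.48 and 3.69 FPKM at d3. Levels in siCtrl vWAT cells were 15.6, 17.0 and 17.0 FPKM at d0 and 2.97, 3.30 and 3.32 FPKM at d3. It fell 4.33-fold in BAT (log2 difference -1.81, SE 0.13, limma adjusted p = 1.9e-05) and 5.16-fold in vWAT cells (-2.06, SE 0.07, adjusted p = 1.6e-06).

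Asns (chr6:7675169-7693254), asparagine synthetase, had 133, 131 and 120 FPKM in siCtrl BAT cells at d0 and 159, 182 and 178 FPKM at d3. It rose 1.35-fold (log2 difference 0.43, SE 0.07, limma adjusted p = 0.00081). Trib3 (chr2:152337422-152344032), a pseudokinase that binds ATF4 and CHOP, had 10.3, 11.9 and 9.17 FPKM there at d0 and 14.4, 16.3 and 16.4 FPKM at d3, a 1.51-fold rise (0.55, SE 0.10, adjusted p = 0.0025). The days did not overlap for either gene.

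In siCtrl vWAT cells neither of the pair went up. Asns had 129, 136 and 126 FPKM at d0 and 105, 113 and 107 FPKM at d3 (log2 difference -0.26, SE 0.05, limma adjusted p = 0.0023, under 1.3-fold). Trib3 had 12.9, 11.3 and 11.7 FPKM at d0 and 10.1, 10.4 and 9.77 FPKM at d3 (-0.23, SE 0.07, adjusted p = 0.026, under 1.3-fold).

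Gdf15 (chr8:70629393-70632456), a secreted stress hormone, had 13.6, 12.8 and 11.5 FPKM in siCtrl BAT cells at d0 and 4.61, 5.27 and 6.72 FPKM at d3. Control (siCtrl) vWAT cells had 17.2, 20.8 and 20.2 FPKM at d0 and 4.47, 6.50 and 5.21 FPKM at d3. It fell 2.29-fold in BAT (log2 difference -1.07, SE 0.13, limma adjusted p = 0.00028) and 3.59-fold in vWAT cells (-1.68, SE 0.13, adjusted p = 5.2e-05).

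With siH19 the falls were called in the same 7 genes in both depots, and Asns and Trib3 took another course. In siH19 BAT cells Asns had 139, 147 and 131 FPKM at d0 and 126, 130 and 129 FPKM at d3 (log2 difference -0.11, 95% confidence interval -0.24 to 0.01, limma adjusted p = 0.087). Trib3 had 12.9, 11.3 and 11.2 FPKM there at d0 and 10.9, 11.1 and 11.4 FPKM at d3 (-0.08, -0.26 to 0.10, adjusted p = 0.39). Neither passed the test.

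Trib3 fell 1.42-fold in siH19 vWAT cells, from 14.6, 14.1 and 15.9 FPKM at d0 to 10.2, 10.97 and 10.3 FPKM at d3 (-0.47, SE 0.07, limma adjusted p = 0.00096). Hspa5 fell 3.28-fold in siH19 BAT cells, from 1567, 1593 and 1588 FPKM to 481, 510 and 457 FPKM (-1.71, SE 0.05, adjusted p = 1.9e-07). Xbp1 leaned upward in siH19 BAT cells, from 126, 129 and 121 FPKM to 140, 136 and 144 FPKM (0.16, SE 0.04, adjusted p = 0.013, under 1.3-fold).

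**Figure D2:**
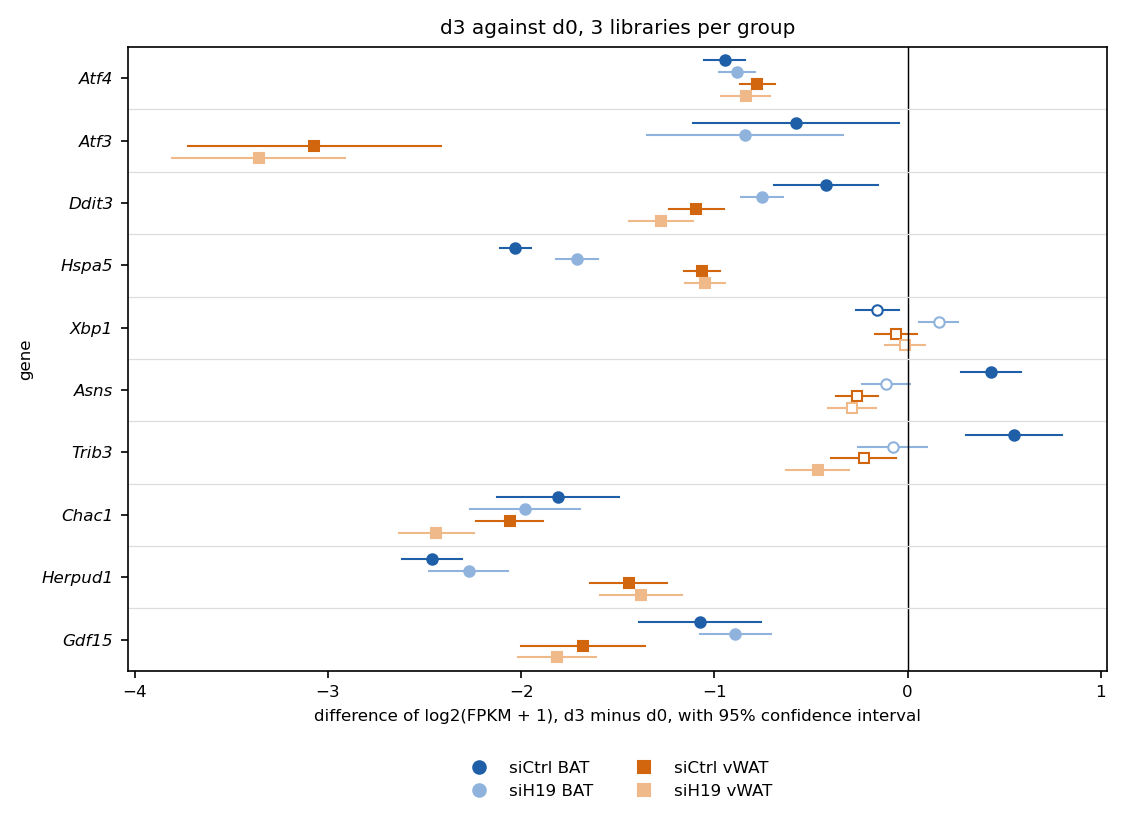
Difference of log2(FPKM + 1), d3 minus d0, of each gene with its 95% confidence interval in siCtrl and siH19 cells of both depots, 3 libraries per group. Filled symbols passed adjusted p under 0.05 and 1.3-fold. Asns and Trib3 lie to the right of 0 in siCtrl BAT cells only, at 0.43 and 0.55, and Atf3 lies farthest left in vWAT cells.

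The change from d0 to d3 differed between the depots for 8 of the 10 genes in siCtrl cells (interaction of depot and day, limma adjusted p under 0.05 with no minimum fold), where 53% of 14111 genes passed. The fall was deeper in BAT cells for Hspa5 (difference of log2 differences -0.97, SE 0.05, adjusted p = 5.3e-08), for Herpud1 (-1.02, SE 0.11, adjusted p = 1.8e-05) and slightly for Atf4 (-0.17, SE 0.06, adjusted p = 0.026). It was shallower in BAT cells for Atf3 (2.49, SE 0.39, adjusted p = 0.00028), Ddit3 (0.67, SE 0.14, adjusted p = 0.0017) and Gdf15 (0.61, SE 0.20, adjusted p = 0.025). For Asns (0.69, SE 0.08, adjusted p = 3.7e-05) and Trib3 (0.78, SE 0.13, adjusted p = 0.00037) the term joined a rise in BAT and an uncalled decline in vWAT cells. The terms of Atf4 and Gdf15 were each lost in 6 of 16 alternatives, Atf4 with adjusted p up to 0.23 and Gdf15 up to 0.057. Xbp1 (-0.10, adjusted p = 0.23) and Chac1 (0.25, adjusted p = 0.20) did not pass.

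Wider gene lists are set below beside the share of all genes called, which some of their counts came near. Of 26 tested genes for ER chaperones, folding and ER-associated degradation, 20 were called lower and 3 higher in siCtrl BAT cells (35.3% and 29.9% of all genes), with a median log2 difference of -1.12. Creld2 (-2.17), Manf (-2.17) and Hyou1 (-2.12), all ER-resident stress proteins, fell most there. The exceptions were Ero1l (1.08), an ER oxidase, Derl1 (0.96), of the degradation channel, and Dnajb9 (0.40), a BiP cochaperone. In siCtrl vWAT cells 12 were called lower and 1 higher (23.9% and 26.3% of all genes), with a median of -0.34. There Hyou1 (-1.21), Ero1l (-1.13) and Manf (-1.11) fell most, and Derl1 (0.47) rose. Ero1l thus rose in one depot and fell in the other, and its interaction term was 2.21 (limma adjusted p = 1.3e-08).

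Of 15 genes for sensors and control of the response, 8 were called lower and 3 higher in siCtrl BAT cells, beside 35.3% and 29.9% of all genes. The ER-anchored factors Creb3l1 (-3.25) and Creb3l2 (-2.41) and the sensor Ern1 (-1.53), which encodes IRE1, fell most. Atf5 (0.85), Cebpg (0.63), a partner of ATF4, and Ppp1r15b (0.41), of the eIF2alpha phosphatase, rose. Among siCtrl vWAT libraries 8 fell and 2 rose, beside 23.9% and 26.3% of all genes. Creb3l2 (-2.39), Creb3l1 (-2.16) and Ern1 (-1.67) again led the falls, and Atf5 (0.70) and the heme-regulated kinase gene Eif2ak1 (0.49) rose.

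Of 18 genes of amino acid metabolism and transport under ATF4 that averaged at least 1 FPKM on both days in siCtrl BAT cells, 5 were called higher and 8 lower, where the shares of all genes were 29.9% and 35.3%. In siCtrl vWAT cells 3 of 19 were called higher and 10 lower, against 26.3% and 23.9% of all genes. The BAT rises were led by Cth (3.55), of cysteine synthesis, and Gpt2 (3.19), an alanine aminotransferase. The hormone gene Fgf21 (2.14) also rose, but it was under 1 FPKM at d0 and was tested only through its d3 level. The BAT falls were led by the amino acid transporters Slc6a9 (-1.84) and Slc7a1 (-1.56) and by Pycr1 (-1.13), of proline synthesis. In vWAT cells Gpt2 (1.75), Eif4ebp1 (1.10) and Cth (0.60) rose most, while the cystine transporter gene Slc7a11 (-2.47), Slc7a1 (-1.80) and Mthfd2 (-0.72) fell most. Of 12 cytosolic tRNA synthetases, 4 rose and 1 fell in siCtrl BAT cells (29.9% and 35.3% of all genes), and Wars (1.02), Mars (0.90) and Gars (0.69) rose and Tars (-0.68) fell. In siCtrl vWAT cells 1 rose, Mars (0.56), and 3 fell, Tars (-0.69), Nars (-0.55) and Cars (-0.38), beside 26.3% and 23.9% of all genes. All these values are differences of log2(FPKM + 1), d3 minus d0. In siCtrl BAT cells the counts called higher in the amino acid and tRNA synthetase lists lay near the share of all genes.

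**Figure D3:**
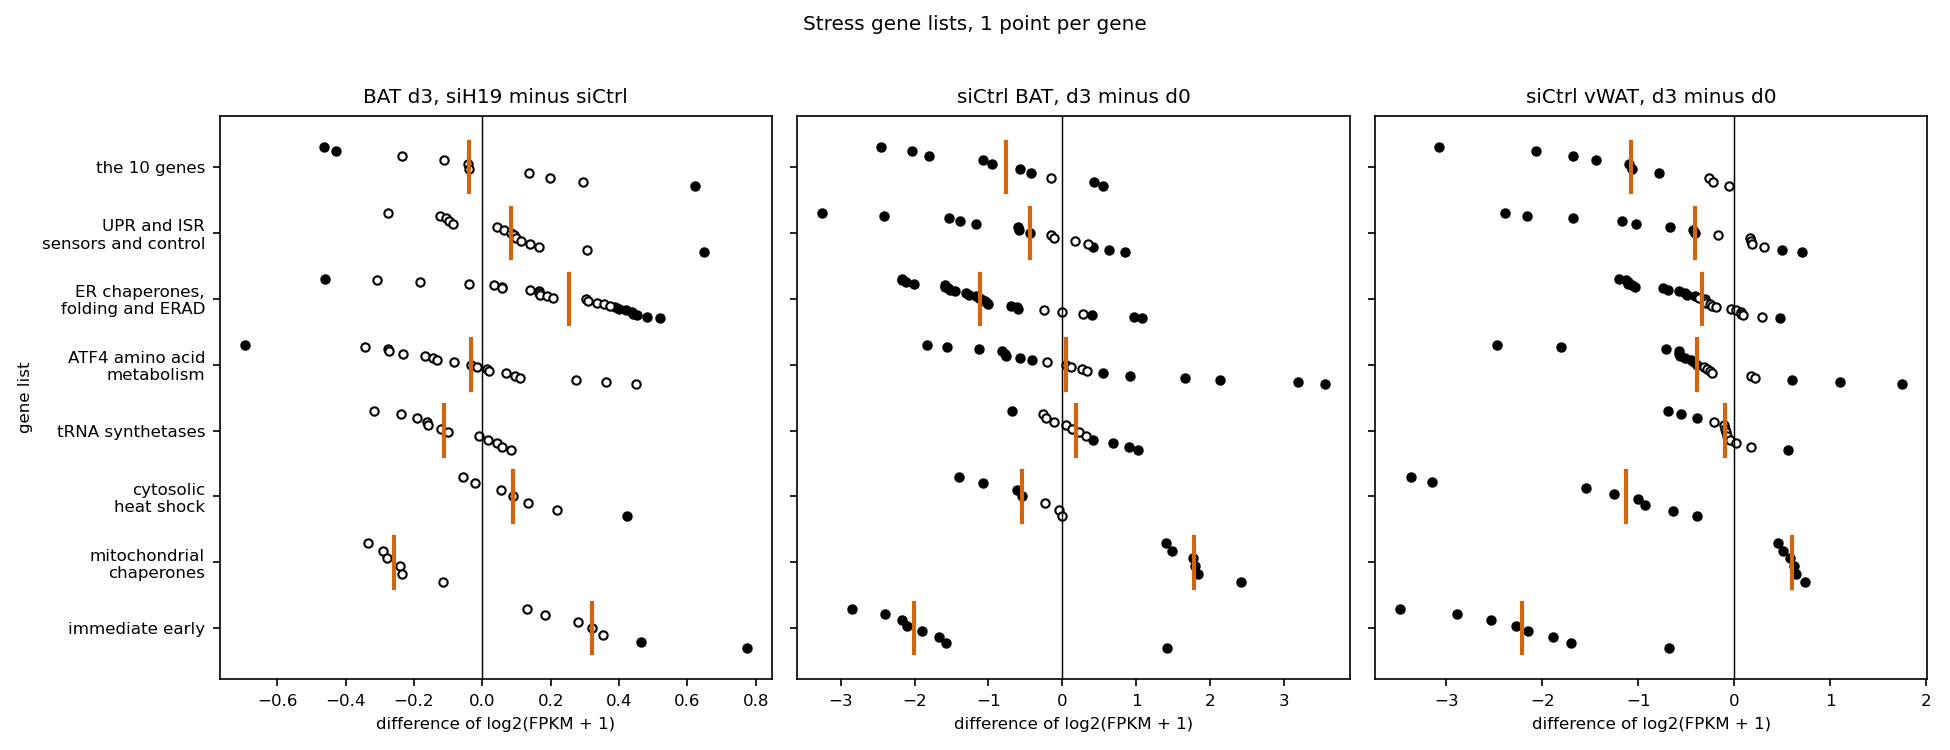
Difference of log2(FPKM + 1) of each tested gene in the stress gene lists for siH19 minus siCtrl in BAT cells at d3 and for d3 minus d0 in siCtrl BAT and siCtrl vWAT cells, with a separate horizontal scale in each panel. Filled points passed adjusted p under 0.05 and 1.3-fold, and orange bars are list medians. The ER chaperone list has a median of 0.25 in the first panel and of -1.12 and -0.34 in the others.

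Some of these genes differed between siH19 and siCtrl libraries in BAT cells at d3. There 2 of the 10 were called lower and 1 higher with siH19, against 2.18% of 12500 genes called lower and 6.39% higher. The pair that had risen with differentiation, Asns and Trib3, was lower, while Gdf15, Hspa5 and Xbp1 were higher in every siH19 library than in every siCtrl library, the last pair by less than 1.3-fold. Under median-ratio scaling the same number of members was called, 1 higher and 2 lower, while over all genes the split moved from 799 higher and 272 lower to 627 higher and 410 lower.

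Asns had 159, 182 and 178 FPKM in siCtrl and 126, 130 and 129 FPKM in siH19 BAT cells at d3. It was 1.35 times lower with siH19 (log2 difference -0.43, SE 0.06, limma adjusted p = 0.0057). Its siH19 level at d3, 128 FPKM on average, lay within the range of the siCtrl libraries at d0. Trib3 had 14.4, 16.3 and 16.4 FPKM in siCtrl and 10.9, 11.1 and 11.4 FPKM in siH19 cells, 1.41 times lower (-0.46, SE 0.07, adjusted p = 0.0090). Neither gene's groups overlapped.

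Hspa5 had 381, 396 and 402 FPKM in siCtrl and 481, 510 and 457 FPKM in siH19 BAT cells at d3. The siH19 level was 1.23 times higher (log2 difference 0.29, SE 0.05, limma adjusted p = 0.011), with no overlap. Xbp1 had 124, 121 and 121 FPKM in siCtrl and 140, 136 and 144 FPKM in siH19 cells, 1.15 times higher (0.20, SE 0.04, adjusted p = 0.017). With no minimum fold both would be called and the count of members would be 5.

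Gdf15 had 4.61, 5.27 and 6.72 FPKM in siCtrl and 8.79, 9.34 and 8.80 FPKM in siH19 BAT cells at d3. It was 1.62 times higher (log2 difference 0.62, SE 0.12, limma adjusted p = 0.020) and did not overlap. The call was lost with no filter on low values (adjusted p = 0.056), without the second siCtrl library (adjusted p = 0.075) and without the first, the second or the third siH19 library (adjusted p = 0.057, 0.063 and 0.051), with log2 differences of 0.60 to 0.64.

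The other 5 genes did not pass at d3 in BAT cells. Atf4 differed by -0.04 on the log2 scale (95% confidence interval -0.14 to 0.05), Atf3 by -0.11 (-0.71 to 0.48), Chac1 by -0.04 (-0.43 to 0.36) and Herpud1 by 0.14 (-0.08 to 0.35). Ddit3 differed by -0.23 (-0.49 to 0.02) with the first siCtrl library, at 34.9 FPKM, as low as the siH19 libraries at 36.2, 35.0 and 35.1 FPKM.

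Of the ER chaperone list, 22 of 26 tested genes had a positive difference in BAT cells at d3, 8 were called higher and 1 lower (6.39% and 2.18% of all genes), and the median was 0.25, beside 0.05 over all genes tested. Hsp90b1 (0.52), the ER paralog of Hsp90, Sdf2l1 (0.48), a BiP partner, and Creld2 (0.45) rose most, and Ero1l (-0.46) was the gene called lower. Under median-ratio scaling 5 were called higher and 1 lower, with a median of 0.20. Of the other lists, 1 of 15 sensor and control genes was called higher, Creb3l1 (0.65). In the amino acid list 0 of 19 were called higher and 1 lower, Fgf21 (-0.70), and 0 of 12 tRNA synthetases were called by limma. With no minimum fold 5 of the 19 amino acid genes passed limma's adjusted p, at a list median of -0.03. At an unadjusted limma p under 0.05 there were 10 of these 19 and 3 of the 12 synthetases, beside 3913 of 12500 genes tested. Hspb1 (0.42) was the 1 of 7 heat shock genes called higher. Of 7 immediate early genes 2 were called higher, Ier3 (0.77) and Btg2 (0.46), and 6 of 6 mitochondrial chaperones and proteases lay below 0. Of these 5 passed limma's adjusted p, Lonp1 (-0.33), Hspa9 (-0.29), Dnaja3 (-0.28), Hspd1 (-0.24) and Hspe1 (-0.23), and these were not called because they lay under 1.3-fold. Their interaction of depot and siRNA at d3 was called lower for Hspa9 (-0.29), Hspd1 (-0.28) and Lonp1 (-0.25).

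Marker levels of the same libraries also differed. The 6 precursor markers summed to 635 to 693 FPKM in siH19 against 384 to 430 FPKM in siCtrl BAT cells at d3, the 6 brown adipocyte markers to 299 to 354 against 503 to 556 FPKM, the 6 adipocyte markers to 31100 to 33310 against 34120 to 35600 FPKM, and the 5 macrophage markers to 78.8 to 89.8 against 125 to 157 FPKM. None of these markers was at 0 in all libraries of a group, and no adipocyte or brown adipocyte marker averaged under 1 FPKM in either group. Most of the brown sum was Elovl3, at 292 against 470 FPKM, and most of the macrophage sum Lyz2, at 77.7 against 128 FPKM. Ucp1, Cidea, Ppargc1a and Elovl3 were called lower with siH19, while Dio2 (log2 difference 0.04) and Prdm16 (0.02) were not called. Lyz2 and Adgre1 were called lower, Cd68 and Csf1r were not, and Ptprc was not tested. The part of these marker differences in the values of Asns, Trib3, Hspa5, Xbp1, Gdf15 and the ER chaperones was not tested.

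In BAT cells at d0 limma called 0 of the 10 genes with siH19, where 0.617% of genes were called higher and 1.32% lower. At an unadjusted p under 0.05 there were 3 of the 10, beside 2482 of 12651 genes tested. Gdf15 came nearest, with 13.6, 12.8 and 11.5 FPKM in siCtrl and 16.7, 16.7 and 19.2 FPKM in siH19 cells, a ratio of 1.39 with no overlap (log2 difference 0.44, SE 0.08, adjusted p = 0.050). It was called under median-ratio scaling (adjusted p = 0.048) and in 1 fit of all 24 libraries (adjusted p = 0.020). At d0 the adipocyte markers summed to 1581 to 2111 FPKM in siH19 and 3130 to 3402 FPKM in siCtrl BAT cells.

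In vWAT cells limma called 0 of the 10 genes at either day. At d0 0.329% of genes were called higher and 1.2% lower, and at d3 0.00764% and 0.0229%. At an unadjusted p under 0.05 there were 4 of the 10 genes at d0, beside 2303 of 13063 genes tested. At d3 there was 1 of the 10, beside 1315 of 13097. The d0 differences leaned upward in 8 of the 10 genes, with a median of 0.14 beside -0.03 over all genes. In the same libraries the adipocyte markers summed to 2399 to 2701 FPKM in siH19 and 4043 to 4062 FPKM in siCtrl cells, and their part in these values was not tested. Chac1 had 15.6, 17.0 and 17.0 FPKM in siCtrl and 20.2, 19.3 and 21.8 FPKM in siH19 vWAT cells at d0 (log2 difference 0.29, 95% confidence interval 0.13 to 0.46, adjusted p = 0.098). Trib3 differed there by 0.29 (0.11 to 0.47, adjusted p = 0.13) and Ddit3 by 0.21 (0.06 to 0.36, adjusted p = 0.16). Xbp1 was lower in every siH19 than in every siCtrl vWAT library on both days. It had 177, 185 and 189 FPKM in siCtrl and 162, 156 and 168 FPKM in siH19 cells at d0 (-0.18, -0.29 to -0.07, adjusted p = 0.13). It had 169, 176 and 183 FPKM in siCtrl and 161, 158 and 162 FPKM in siH19 cells at d3 (-0.13, -0.23 to -0.04, adjusted p = 0.38). At d3 the intervals of other members included 0, as for Asns (-0.00 to 0.19), Hspa5 (-0.15 to 0.06) and Trib3 (-0.09 to 0.19). In the wider lists limma called 0 genes for siH19 in BAT cells at d0 and in vWAT cells at either day. Of the 26 ER chaperone genes 4, 6 and 2 had an unadjusted p under 0.05 in BAT cells at d0, vWAT cells at d0 and vWAT cells at d3. Of the amino acid list these were 6 of 18, 4 of 19 and 2 of 19. Over all genes tested they were 2482 of 12651, 2303 of 13063 and 1315 of 13097. Over all genes at d0 the split of calls in vWAT cells moved from 43 higher and 157 lower to 61 higher and 128 lower under median-ratio scaling.

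**Figure D4:**
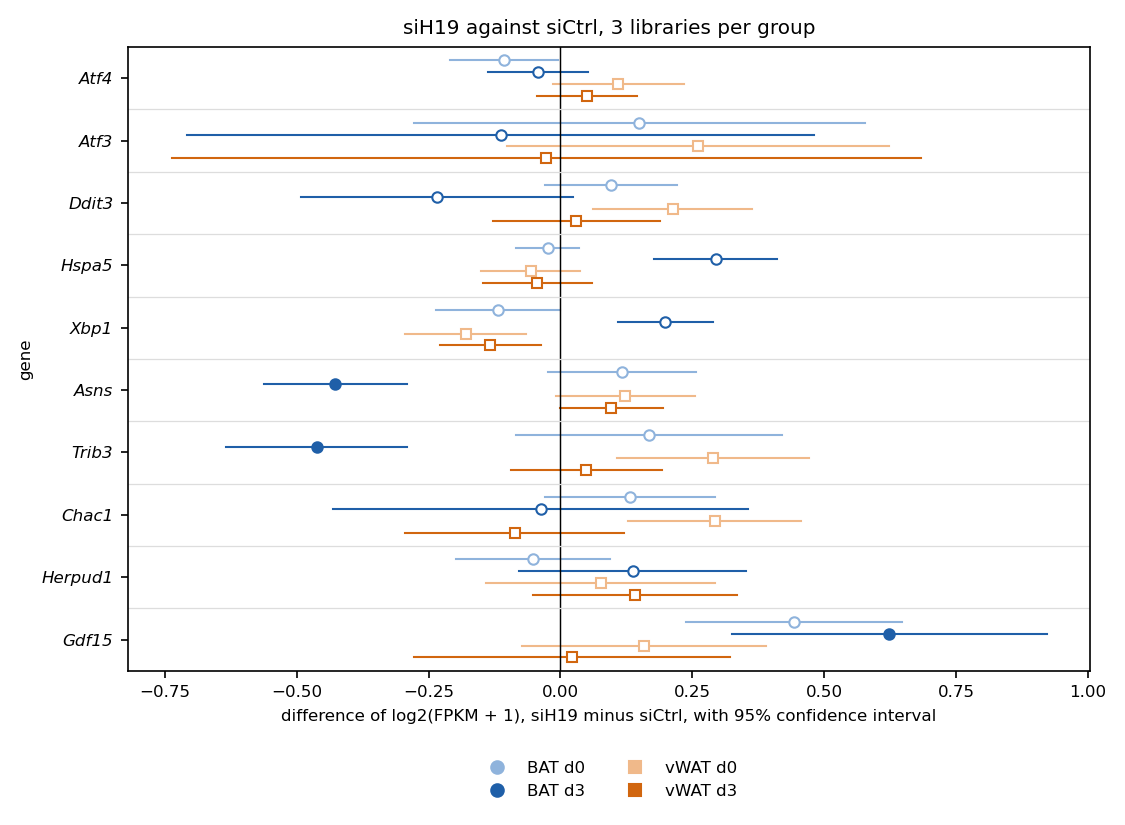
Difference of log2(FPKM + 1), siH19 minus siCtrl, of each gene with its 95% confidence interval in BAT and vWAT cells at d0 and d3, 3 libraries per group. Filled symbols passed adjusted p under 0.05 and 1.3-fold. The filled symbols are those of Asns (-0.43), Trib3 (-0.46) and Gdf15 (0.62) in BAT cells at d3.

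The siH19 difference itself differed between depots at d3 for 4 of the 10 genes, where 10.5% of genes passed (interaction of depot and siRNA, limma adjusted p under 0.05). In BAT relative to vWAT cells it was lower for Asns (-0.52, SE 0.07, adjusted p = 0.0024) and Trib3 (-0.51, SE 0.08, adjusted p = 0.0047) and higher for Hspa5 (0.34, SE 0.07, adjusted p = 0.010) and Xbp1 (0.33, SE 0.05, adjusted p = 0.0033). The Xbp1 term joined a difference of 0.20 in BAT and of -0.13 in vWAT cells. For Gdf15 the term was 0.60 (SE 0.18, adjusted p = 0.066), and it passed without the third siCtrl BAT library (0.73, adjusted p = 0.027) or the first siCtrl vWAT library (0.71, adjusted p = 0.040). Ddit3 (-0.26, adjusted p = 0.26) passed without the first siCtrl BAT library (-0.39, adjusted p = 0.020). At d0 0 of the 10 genes and 1.02% of all genes passed. An unadjusted p under 0.05 was found for 1 of the 10 there, beside 1823 of 13708 genes tested. Of the ER chaperone list 13 of 26 had a higher and 2 a lower term at d3, beside 966 higher and 485 lower among 13762 genes tested. These counts are without scaling. The share of higher terms among all genes that passed at d3 went from 66.6% to 45.6% under median-ratio scaling, and the 4 members passed in both.

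Within BAT cells the siH19 difference changed from d0 to d3 for the same 4 members, where 9.06% of genes passed (interaction of day and siRNA). The terms were -0.54 for Asns (SE 0.08, limma adjusted p = 0.0039), -0.63 for Trib3 (SE 0.13, adjusted p = 0.013), 0.32 for Hspa5 (SE 0.05, adjusted p = 0.0058) and 0.32 for Xbp1 (SE 0.06, adjusted p = 0.0092). Under median-ratio scaling Hspa5 (0.21, adjusted p = 0.067) and Xbp1 (0.21, adjusted p = 0.052) no longer passed, and the share of higher terms over all genes went from 86.0% to 61.1%. Without the first siCtrl BAT library at d3, Ddit3 passed as well (-0.46, adjusted p = 0.0052). In vWAT cells 0 of the 10 genes and 1.73% of all genes passed. An unadjusted p under 0.05 was found for 2 of the 10 there, beside 1944 of 13948 genes tested.

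Between the depots, BAT cells at d0 had more mRNA of the ER proteins Hspa5 and Herpud1, and less of Atf3, Gdf15, Xbp1 and Chac1, than vWAT cells. In siCtrl cells at d0 2 of the 10 genes were called higher and 4 lower in BAT, where 10.2% of genes were called higher and 21% lower. Hspa5 was 1.43 times higher (1610 against 1122 FPKM on average, log2 difference 0.52, SE 0.03, limma adjusted p = 2.4e-05) and Herpud1 1.48 times higher (122 against 82.3 FPKM, 0.56, SE 0.06, adjusted p = 0.00030). Atf3 was 5.68 times lower (5.18 against 29.4 FPKM, -2.29, SE 0.16, adjusted p = 6.6e-05), and Gdf15 1.53 times lower (12.6 against 19.4 FPKM, -0.58, SE 0.09, adjusted p = 0.0029). Xbp1 was 1.35 times lower (-0.43, SE 0.05, adjusted p = 0.00060) and Chac1 1.32 times lower (-0.38, SE 0.06, adjusted p = 0.0030). The ER chaperone list did not share the calls of Hspa5 and Herpud1. In it 2 of 26 genes were called higher and 1 lower in BAT, with a median log2 difference of 0.19. Of 18 genes of the amino acid list at 1 FPKM or more in both depots, 0 were called higher and 7 lower.

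Scaling matters for these comparisons. Median-ratio scaling moved the log2 difference between depots of all genes by a median of 0.12 in siCtrl cells at d0, 0.13 in siCtrl cells at d3 and 0.11 in siH19 cells at d0. It moved the calls over all genes in siCtrl cells at d0 from 1343 higher and 2753 lower to 1833 higher and 1956 lower. With it Xbp1 (-0.30) and Chac1 (-0.26) were under 1.3-fold at d0, and the calls of Hspa5, Herpud1, Atf3 and Gdf15 stood. Chac1 was also under 1.3-fold without the first or the second siCtrl BAT library (-0.36 and -0.37) and without the second or the third siCtrl vWAT library (-0.36 and -0.36) at d0. Ddit3 (-0.33, adjusted p = 0.0058) was under 1.3-fold and was called without the first siCtrl vWAT library (-0.38, adjusted p = 0.0056).

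In siCtrl cells at d3, 2 genes were called higher in BAT and 3 lower, where 16.5% of genes were called higher and 32.1% lower. Asns was 1.60 times higher (173 against 108 FPKM, log2 difference 0.67, SE 0.06, limma adjusted p = 9.1e-05) and Trib3 1.56 times higher (15.7 against 10.1 FPKM, 0.59, SE 0.07, adjusted p = 0.00041). Hspa5 was 1.37 times lower (-0.45, SE 0.04, adjusted p = 0.00011), Herpud1 1.39 times lower (-0.46, SE 0.09, adjusted p = 0.0040) and Xbp1 1.44 times lower (-0.53, SE 0.04, adjusted p = 4.6e-05). Under median-ratio scaling Hspa5 (-0.31) and Herpud1 (-0.32) were under 1.3-fold and Ddit3 was called higher (0.47, adjusted p = 0.0087), which gave 3 genes higher and 1 lower. The calls over all genes went from 2162 higher and 4216 lower to 2801 higher and 3347 lower. Ddit3 was called as well without the first siCtrl BAT library at d3 (0.47, adjusted p = 0.00084). Of the ER chaperone list 16 of 26 were called lower and 3 higher in BAT (32.1% and 16.5% of all genes), and Sdf2l1 (-1.54), Pdia6 (-1.16) and Os9 (-1.12) were lowest, while Ero1l (1.37), Edem1 (0.55) and Dnajb9 (0.45) were higher. Of the amino acid list 6 of 19 were called higher and 6 lower, with a median of -0.12.

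In siH19 cells at d0 2 of the 10 genes were called higher and 4 lower in BAT (9.82% and 20.6% of all genes), and at d3 1 higher and 2 lower (15.9% and 25.2%). Of the d0 values Hspa5 (log2 difference 0.55) and Herpud1 (0.43) were higher and Atf3 (-2.40), Chac1 (-0.54), Ddit3 (-0.45) and Atf4 (-0.40) lower. At d3 Gdf15 was 1.65 times higher (8.98 against 5.44 FPKM, 0.63, SE 0.07, limma adjusted p = 0.00041), Atf4 1.37 times lower (-0.45) and Herpud1 1.39 times lower (-0.46). Median-ratio scaling took Atf4 (-0.29) and Ddit3 (-0.33) under 1.3-fold at d0. Leaving out the third vWAT library did so for Atf4 (-0.36) and leaving out the second for Herpud1 (0.34) at d0, and leaving out the second BAT library did so for Herpud1 at d3 (-0.37). Xbp1 (-0.37) was called at d0 without the second BAT library (-0.39) or the second vWAT library (-0.40). Over all genes scaling moved the calls at d0 from 1282 higher and 2690 lower to 1727 higher and 2016 lower. Asns (0.15) and Trib3 (0.08), which parted the depots in siCtrl cells at d3, were not called here. The 5 macrophage markers summed to 517 to 583 FPKM in siH19 vWAT and 78.8 to 89.8 FPKM in siH19 BAT cells at d3, and their part in the depot differences was not tested.

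**Figure D5:**
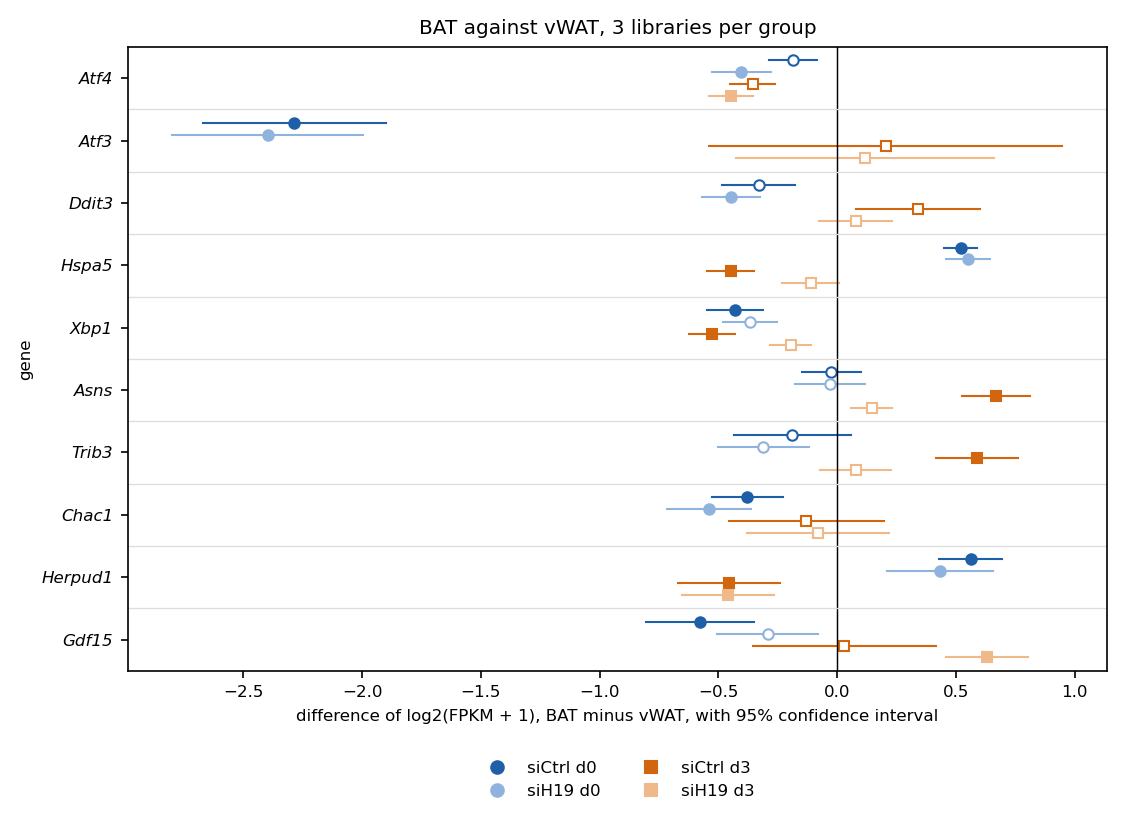
Difference of log2(FPKM + 1), BAT minus vWAT, of each gene with its 95% confidence interval in siCtrl and siH19 cells at d0 and d3, 3 libraries per group. Filled symbols passed adjusted p under 0.05 and 1.3-fold. Hspa5 lies right of 0 at d0 (0.52 and 0.55) and left of it at d3 (-0.45 and -0.11), and Atf3 lies near -2.29 and -2.40 at d0.

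Over the 8 group means of log2(FPKM + 1), the genes most like Atf4 among 8265 compared were Syce2, Slc35f6 and Arhgap32, with Pearson r of 0.993, 0.992 and 0.991. Those most like Ddit3 included Nars (0.988) and Fbxw11 (0.983), and those most like Hspa5 were Syde1 (0.9995), Bcar1 (0.9993) and Peg12 (0.998). With 8 points that share the d0 to d3 contrast, these values are a description.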

How the data were processed

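RNA of 24 libraries (8 groups of 3) was sequenced after poly-A selection. Per the study's methods the authors mapped reads to GRCm38 with TopHat2 and assembled them with Cufflinks. The submitters' processing notes name FastQC 0.10.1, TopHat2 2.0.10, STAR, Cufflinks 2.2.1, DESeq2, R 3.2.2 and GRCm38.p5. The study's methods and the labels differ on the Cufflinks version, and on single-end or paired reads. The authors deposited 1 table of FPKM per gene and library, with no read counts, and all its library columns were used.

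From these FPKM, log2(FPKM + 1) was tested with limma 3.58.1 (R 4.3.3, trended variance, Benjamini-Hochberg over all genes tested). Each fit used only the groups compared. Genes needed at least 1 FPKM in at least 3 libraries of the fit. Calls took adjusted p under 0.05 and at least 1.3-fold of the fitted log2 difference, with no minimum fold for interactions. On this scale changes of low genes are understated. Ratios are of mean FPKM, and intervals are 95% confidence intervals. Library depth is unknown, so no counting error is given. On simulated data for siH19 in BAT cells at d3 (12367 genes), 49% of genes changed by 0.5 on the log2 scale and 90% of those changed by 1 were recovered. For the interaction of depot and siRNA at d3 the shares were 39% and 81%. Of the calls 8 of 147 and 3 of 123 were on genes that had not been changed. Only genes above a minimum mean level were changed, so these rates do not cover the lowest genes. Each simulation changed 100 genes at each size, fewer than were called in the data. The adjusted p depends on that number, so the rates need not hold for the tests above.

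Named genes were the 10 members, and of each wider list up to 3 called genes with the largest difference in each direction, and the 3 genes most like Atf4, Ddit3 and Hspa5 (mean of at least 5 FPKM in a group, range of at least 0.5 on the log2 scale). One of the genes so chosen is not reported here. Mars was named for its overlap with Ddit3, and the interaction of Ero1l after its values were seen. So were the uncalled mitochondrial chaperones and proteases for siH19 in BAT cells at d3, with their interaction terms. Members and lists were chosen with earlier results of these data known. Slc7a5 was not found in the table, and Slc7a3 and Derl3 were not tested because of low values. Symbols of 28503 gene rows came from a reference table. Promoters came from RefSeq (GRCm38.p6). Gene coordinates are those of the table (GRCm38), and 9 of the 10 are identical in GENCODE M21. No pair of same-numbered replicates was linked in the labels, and no comparison had all same-number correlations over 0.1. Alternatives were a pseudocount of 0.1, no filter, median-ratio scaling, no minimum fold, 1 fit of all libraries, a replicate block and leaving out each library.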

Additional observations from a re-analysis of the deposited data

Results flagged for a closer look

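Differences whose size itself differed between depots or days, by an interaction term with limma adjusted p under 0.05, are listed here as differences of log2 differences. For the siH19 effect at d3 in BAT minus that in vWAT cells the terms were 0.34 for Hspa5, 0.33 for Xbp1, -0.52 for Asns and -0.51 for Trib3. For the siH19 effect at d3 minus that at d0 in BAT cells they were 0.32 for Hspa5, 0.32 for Xbp1, -0.54 for Asns and -0.63 for Trib3. For the change from d0 to d3 in siCtrl BAT minus that in siCtrl vWAT cells they were -0.17 for Atf4, 2.49 for Atf3, 0.67 for Ddit3, -0.97 for Hspa5, 0.69 for Asns, 0.78 for Trib3, -1.02 for Herpud1 and 0.61 for Gdf15. The terms for Asns and Trib3 at d3 rest on the same 3 siCtrl BAT libraries in all 3 interactions. These libraries also enter their rise from d0 to d3, their siH19 difference and their depot difference in siCtrl cells at d3.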

How the results depend on the processing

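Of 224 counts of called members under the alternatives, 219 stayed within 1.5 times the reported count, and of 2240 values of single members none changed direction while called, 43 lost and 27 gained a call. Median-ratio scaling moved the count from 0 to 1 for siH19 in BAT cells at d0 and from 4 to 2 for the interaction of day and siRNA in BAT cells. The fit of all 24 libraries gave 1 in place of 0 for siH19 in BAT cells at d0. With no minimum fold the count went from 3 to 5 both for siH19 in BAT cells at d3 and for BAT against vWAT in siH19 cells at d3. Leaving out 1 library gave 2 to 3 members for siH19 in BAT cells at d3, and 0 to 0 for siH19 in BAT cells at d0 and in vWAT cells. It gave 7 to 9 for d3 against d0 in siCtrl BAT cells, 7 to 7 in siH19 BAT and in siCtrl vWAT cells and 8 to 8 in siH19 vWAT cells. Between depots it gave 5 to 7 at d0 in siCtrl and in siH19 cells, 5 to 6 at d3 in siCtrl and 2 to 3 at d3 in siH19 cells. For the interactions it gave 4 to 5 for depot and siRNA at d3 and for day and siRNA in BAT cells, 6 to 8 for depot and day, and 0 to 0 for the others. The causes were not tested.

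With a replicate block on the shared replicate numbers the count of members was that reported in all 17 comparisons, for example 3 for siH19 in BAT cells at d3 and 9 for d3 against d0 in siCtrl BAT cells. The samples share only a number.

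With 3 libraries per group and no read counts, small differences of low genes such as Atf3 and Chac1 at d3 are the least precise, with intervals of -0.71 to 0.48 and -0.43 to 0.36 for siH19 in BAT cells at d3.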

Other observations

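Stress genes outside the ER also differed between depots at d0. Of 7 cytosolic heat shock genes at 1 FPKM or more in both depots, 6 were called lower in BAT than in vWAT cells in siCtrl libraries at d0, where 21% of all genes were called lower, and their median log2 difference was -0.57. Hspa1b averaged 4.83 FPKM in BAT and 59.1 FPKM in vWAT cells, and Hsph1 differed by -1.04. Hspa1a, at 0.621 against 18.8 FPKM, was tested only through its vWAT level, and this gene and the near-identical Hspa1b can share reads. With Hspa1a the count went from 7 of 8 to 5 of 8 under median-ratio scaling. At d3 the heat shock genes did not keep this direction. In siCtrl cells 0 of 7 were called higher and 2 lower in BAT (16.5% and 32.1% of all genes), with a median of 0.17. In siH19 cells 2 of 7 were called higher and 2 lower (15.9% and 25.2%), with a median of 0.30. From d0 to d3 7 of 7 such genes were called lower in siCtrl vWAT cells (23.9% of all genes), led by Hspa1b (-3.14) and the cochaperone Dnajb1 (-1.55), and 4 of 7 in siCtrl BAT cells (35.3% of all genes). Of 7 immediate early genes at 1 FPKM or more on both days, 7 were called lower in siCtrl vWAT and 6 in siCtrl BAT cells, beside the same shares of 23.9% and 35.3%. Ier3 (-3.48 in vWAT, -2.85 in BAT) fell most, while Fos rose in BAT cells (1.42).

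All 6 mitochondrial chaperones and proteases tested rose from d0 to d3 in both depots of siCtrl cells, where 29.9% of all genes were called higher in BAT and 26.3% in vWAT cells. The median log2 difference was 1.78 in BAT and 0.60 in vWAT cells, and all 6 interaction terms of depot and day were called higher in BAT. Among 14111 genes tested 3514 such terms were higher and 3959 lower, 53% in either direction. Hspd1, the mitochondrial HSP60, went from 174 to 935 FPKM in siCtrl BAT cells. At d3 5 of the 6 were called higher in siCtrl BAT than in siCtrl vWAT cells (16.5% of all genes), led by Hspd1 (1.45), Hspa9 (1.09) and Dnaja3 (0.98).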
